A study of Mus musculus with 13 samples.

Results

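Besides Oct4 and Nanog, the pluripotent cells of the mouse embryo rely on a wider set of factors, and 10 of them were followed here by gene symbol over all 13 arrays of the study: Sox2, Esrrb, Tbx3, Klf2, Klf4, Klf5, Nr5a2, Tfcp2l1, Sall4 and Lin28a. Of these 10 genes, 9 had at least 1 probe on the chip, with 19 probes in all among 25697. Tfcp2l1, a factor of naive pluripotency, had no probe in the annotation used and was not measured. All 9 measured genes passed the detection filter, which left 9787 of 16593 genes for testing, but Sox2 passed it through 2 arrays only.

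The arrays held RNA from pools of mouse embryos, from MII oocytes and from cumulus cells, the somatic cells around the oocyte whose nuclei were used for somatic cell nuclear transfer (SCNT). Fertilized and SCNT embryos were cultured in the same medium, either without aphidicolin (Aph-) or with it (Aph+). Aphidicolin blocks the DNA polymerases of replication, so Aph+ embryos stayed at the 1-cell stage, whereas Aph- embryos could divide and were pooled whatever stage they had reached. Fertilized Aph-, fertilized Aph+ and SCNT Aph- embryos had 3 arrays each, cumulus cells had 2, and SCNT Aph+ embryos and oocytes had 1 each. Within a group of 3, the labels mark 1 array with no time, 1 with 96 h and 1 as blastocyst. They mark SCNT Aph+ as blastocyst too, although the methods give 1-cell arrest for Aph+ embryos and the same sampling time for all. For fertilization the labels and the note on deposition in the methods say in vitro, while the study describes its embryos as made by sperm injection. The strain is B6C3F1 in the labels and C3H/HeN for oocytes with C57Bl/6J for sperm and cumulus nuclei in the methods. Whether the pools of a group were cultured separately is not stated, and p-values cover no more than the spread among these pools.

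The factors act at different levels of one network. In mouse embryonic stem cells, LIF acts through STAT3 on Klf4 and also sustains Tbx3, and WNT signalling relieves repression of Esrrb and Tfcp2l1. Sox2 binds DNA together with Oct4, Esrrb and Nr5a2 are orphan nuclear receptors, Klf2, Klf4 and Klf5 share a zinc-finger domain that binds GC-rich and CACCC sites, Sall4 is a zinc-finger protein that can recruit the NuRD complex, and Lin28a binds RNA and blocks maturation of let-7 miRNAs. Several also act outside pluripotent cells, Klf5 and Tbx3 in trophectoderm for example, and Nr5a2 in the granulosa and cumulus cells of the ovary.

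Levels are normalized log2 intensities, in which dim and bright arrays were given 1 common distribution, so a level is relative to the other mRNAs of the array and not an amount per embryo. A probe was called detected where fewer than 1 in 100 negative controls were as bright (detection p under 0.01). The Aph+ arrays were dim, with mean intensities of 116 to 129 after fertilization and 89.8 after SCNT, against 184 to 374 on the Aph- embryo arrays. Arrays correlated at 0.845 or above within fertilized Aph+ embryos and at 0.971 or above within the Aph- groups. The SCNT Aph+ array also carried the markers of cumulus cells. Of 12 such genes, 10 were detected on it and their mean log2 level was 7.84, against 4.48 to 4.54 in SCNT Aph- embryos and 7.88 to 7.97 in cumulus cells. Mean levels of these markers were 5.68 on fertilized Aph+ replicate 1, where 4 were detected, 4.80 to 5.03 on the other fertilized Aph+ arrays, and 5.56 in the oocyte. Across genes, which are not independent replicates, r of the SCNT Aph+ array was 0.859 and 0.869 with cumulus cells, 0.702 to 0.717 with SCNT Aph- embryos and 0.631 with the oocyte. With the fertilized Aph+ arrays it was 0.713, 0.607 and 0.624. Oocyte genes (11 measured) had mean log2 levels of 8.70 to 9.07 on the Aph+ arrays, 9.91 in the oocyte and 4.78 to 5.28 in Aph- embryos. Trophectoderm genes (11 measured) had 6.40 to 6.76 on the Aph+ arrays and 9.41 to 10.03 in Aph- embryos. No sperm marker was detected on any array. The part of these other cells in the values below was not tested, and fewer cells of a type cannot be told apart from less RNA per cell.

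**Figure D1:**
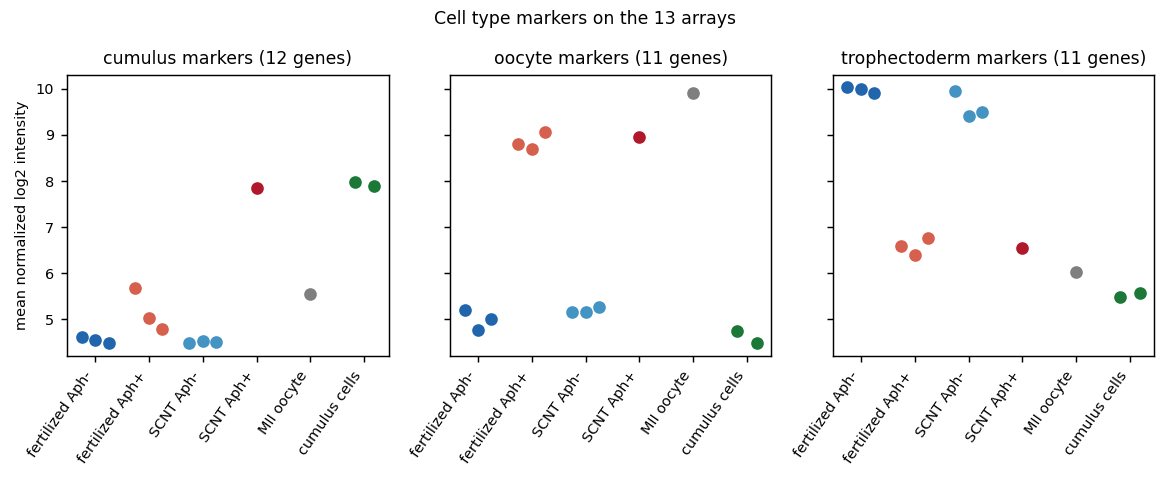
Mean normalized log2 intensity of the cumulus, oocyte and trophectoderm marker genes (y axis) on each of the 13 arrays, by group (x axis), with 1 point per array. The SCNT Aph+ array lies at the level of cumulus cells for cumulus markers (7.84) and near the oocyte for oocyte markers (8.96).

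With Aph, Tbx3 and Klf5 were lower than in untreated embryos of both kinds, and Esrrb and Lin28a were lower on the SCNT Aph+ array as well. Aph+ embryos also did not divide, so the part of replication itself was not tested. In fertilized Aph+ against Aph- embryos, 2 of the 9 factors were lower and 0 were higher at a limma adjusted p under 0.05, against 25.1% of all genes tested that were lower and 19.1% that were higher. At an unadjusted p under 0.05, 4 were lower and 0 higher. The 4 include Sox2, whose Aph- levels lay below the Aph+ detection limits. Counts at this threshold, here and below, have no share of all genes beside them. The median log2 difference of the 9 was -0.64, against -0.03 over all genes. On the SCNT Aph+ array against SCNT Aph- embryos, 4 of 9 were lower and 0 higher, against 14.7% and 13.7% of all genes, and 5 were lower and 0 higher at an unadjusted p under 0.05. The median there was -0.94, against -0.10 over all genes. The fit takes the spread of the lone SCNT Aph+ and oocyte arrays from the remaining groups.

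**Figure D2:**
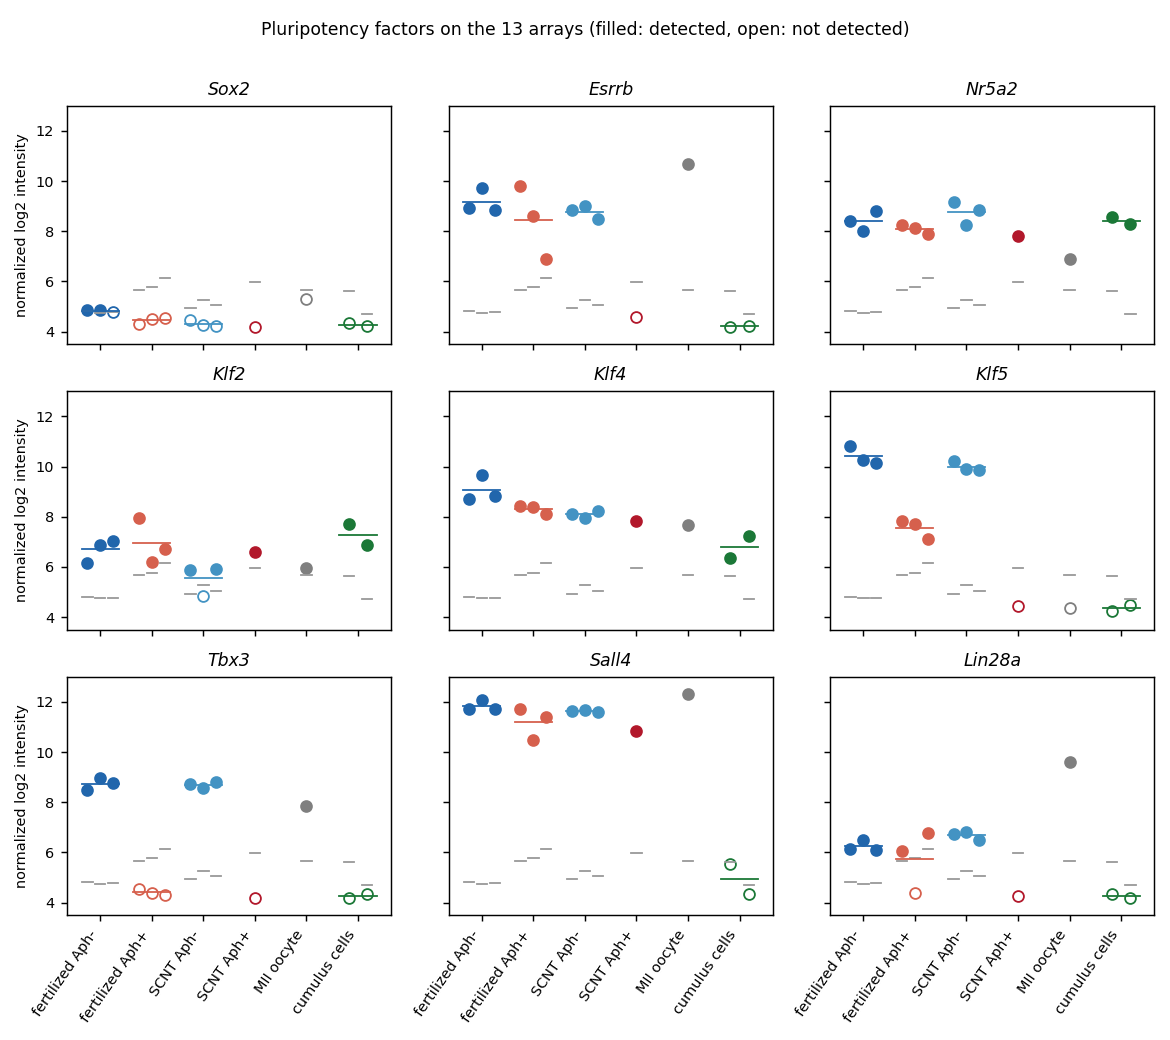
Normalized log2 intensity (y axis) of the 9 measured factors on each array, by group (x axis). Filled points were detected and open points were not, coloured lines are group means, and short grey ticks mark the detection limit of each array. Tbx3 and Klf5 separate Aph- from Aph+ embryos, while Klf4, Nr5a2 and Sall4 were detected on every embryo array.

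Tbx3, a T-box repressor and activator that helps to sustain self-renewal, was detected in all untreated embryos and in no Aph+ embryo. Its log2 levels were 8.50, 8.98 and 8.76 in fertilized Aph- embryos and 8.73, 8.57 and 8.79 in SCNT Aph- embryos. With Aph they were 4.53, 4.40 and 4.31 after fertilization and 4.20 after SCNT, all below the detection limit. The groups did not overlap, and the Aph+ arrays lay where cumulus cells lay, at 4.19 and 4.35. The log2 difference was -4.34 ± 0.19 (SE, n = 3 against 3, adjusted p = 6.22e-07) after fertilization and -4.50 ± 0.26 (n = 1 against 3, adjusted p = 1.16e-05) after SCNT. Because the probe was undetected with Aph, these are falls of at least 7.37-fold and at least 6.64-fold, set by the detection limit of the dim Aph+ arrays. The oocyte held Tbx3 at a log2 level of 7.85, so its transcript was lower in fertilized Aph+ embryos than in the oocyte, by at least 3.96-fold (log2 difference -3.44 ± 0.26, adjusted p = 7.93e-06, n = 3 against 1). In untreated embryos the level was slightly above the oocyte, with log2 differences of 0.90 ± 0.26 (adjusted p = 0.0189) after fertilization and 0.85 ± 0.26 (adjusted p = 0.0241) after SCNT. These calls were lost in 5 and 7 of 20 alternatives, among them the authors' log2 values and the sample type as a block in both, and the fits without SCNT Aph- replicate 1 or replicate 3 after SCNT. A further Tbx3 probe followed the same course over the 13 arrays (r = 0.969) and was lower with Aph, at log2 differences of -2.25 ± 0.22 after fertilization and -2.21 ± 0.32 after SCNT, but it did not separate untreated embryos from the oocyte, with log2 differences of -0.20 ± 0.32 and -0.47 ± 0.32. Another probe was detected on no array.

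Klf5, the Krüppel-like factor that acts in both inner cell mass and trophectoderm, was absent from the oocyte within the limit of detection and rose in every embryo group but SCNT Aph+. Its log2 levels were 10.83, 10.25 and 10.13 in fertilized Aph- embryos and 10.21, 9.88 and 9.86 in SCNT Aph- embryos. They were 7.82, 7.71 and 7.12 in fertilized Aph+ embryos, each detected. The SCNT Aph+ array stood at 4.45, beside the oocyte at 4.36 and cumulus cells at 4.24 and 4.50, all undetected. The order was thus untreated embryos, then fertilized Aph+, then the undetected arrays, with no overlap between these 3 levels. Against the oocyte, Klf5 was at least 26.5-fold higher in fertilized Aph- embryos (log2 difference 6.04 ± 0.37, adjusted p = 2.36e-06), at least 19.8-fold higher in SCNT Aph- embryos (5.62 ± 0.37, adjusted p = 3.25e-06) and at least 3.68-fold higher in fertilized Aph+ embryos (3.19 ± 0.37, adjusted p = 8.89e-05). With Aph it fell 7.22-fold after fertilization (log2 difference -2.85 ± 0.26, adjusted p = 2.75e-05, n = 3 against 3) and at least 16.2-fold after SCNT (-5.53 ± 0.37, adjusted p = 1.69e-05, n = 1 against 3). In intensities before normalization, Klf5 read 1866 to 3363 in fertilized Aph- embryos and 98.8 to 130 in fertilized Aph+ embryos, on arrays whose mean intensities were 316 to 374 and 116 to 129.

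Klf4, a target of LIF signalling, was detected on all 13 arrays and moved much less. Log2 levels of Klf4 were 8.72, 9.65 and 8.82 in fertilized Aph- embryos, 8.42, 8.40 and 8.12 in fertilized Aph+ embryos, and 8.11, 7.95 and 8.23 in SCNT Aph- embryos. They were 7.85 on the SCNT Aph+ array, 7.67 in the oocyte and 6.35 and 7.21 in cumulus cells. Fertilized Aph- embryos lay above every other array, yet the log2 difference of fertilized Aph+ from Aph- embryos was -0.75 ± 0.30 and did not pass (adjusted p = 0.0682). That call depends on the normalization, since scaling each array to its 75th percentile instead gave -1.79 ± 0.36 (adjusted p = 0.000504), and without background correction it was -0.56 (adjusted p = 0.0439). After SCNT the log2 difference with Aph was -0.25 ± 0.43 (adjusted p = 0.755). Relative to the oocyte, Klf4 was 2.63-fold higher in fertilized Aph- embryos (log2 difference 1.40 ± 0.43, adjusted p = 0.0233), and did not pass in SCNT Aph- embryos (0.43 ± 0.43, adjusted p = 0.479). The call in fertilized Aph- embryos was lost with the authors' log2 values and with the sample type as a block.

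Klf2, the Krüppel-like factor of the ground state, was low and variable. Klf2 had log2 levels of 6.17, 6.90 and 7.03 in fertilized Aph- embryos, 7.94, 6.18 and 6.71 in fertilized Aph+ embryos, and 5.87, 4.86 and 5.90 in SCNT Aph- embryos, where it was detected on 2 of 3 arrays. The SCNT Aph+ array had 6.61, the oocyte 5.97 and cumulus cells 7.69 and 6.88. Aph+ and Aph- overlapped after fertilization, with a log2 difference of 0.25 ± 0.49 (adjusted p = 0.722) that turned to -0.40 ± 0.37 with 75th percentile scaling. After SCNT the log2 difference was 1.07 ± 0.69 (adjusted p = 0.3), on an array with cumulus markers at the level of cumulus cells, the group in which Klf2 was highest. SCNT Aph- embryos held 3.34-fold less Klf2 than cumulus cells (log2 difference -1.74 ± 0.55, adjusted p = 0.0334, n = 3 against 2). Without SCNT Aph- replicate 2, or without either cumulus array, that difference did not pass.

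**Figure D3:**
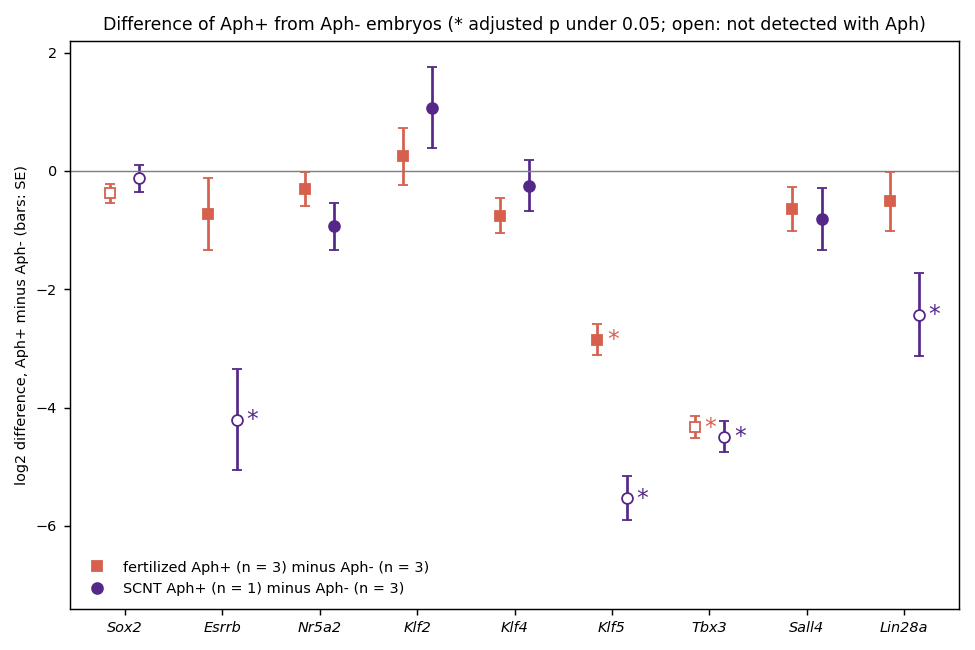
Log2 difference of Aph+ from Aph- embryos (y axis) for the 9 factors (x axis), as estimates with standard errors from limma, after fertilization (squares) and after SCNT (circles). Open symbols were undetected with Aph, so the size of their fall is a fitted value and not a bound, and asterisks mark adjusted p under 0.05. Klf5 and Tbx3 lie far below 0 in both, and Esrrb and Lin28a after SCNT.

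Esrrb, an orphan nuclear receptor downstream of WNT signalling, was present in the oocyte, in every fertilized embryo pool and in untreated SCNT embryos, and undetected on the SCNT Aph+ array. Its log2 levels were 8.94, 9.73 and 8.84 in fertilized Aph- embryos and 8.84, 9.002 and 8.48 in SCNT Aph- embryos. In fertilized Aph+ embryos they were 9.82, 8.59 and 6.91, a spread from above all untreated pools to far below them. The oocyte stood highest at 10.68, and the SCNT Aph+ array at 4.57 and cumulus cells at 4.19 and 4.23 were undetected. With Aph, Esrrb fell at least 7-fold after SCNT (log2 difference -4.21 ± 0.85, adjusted p = 0.00515, n = 1 against 3). After fertilization the log2 difference was -0.73 ± 0.60 (adjusted p = 0.355), and it passed without fertilized Aph+ replicate 1 (-1.42, adjusted p = 0.0356) and vanished without replicate 3 (0.04, adjusted p = 0.958). Against the oocyte the log2 differences were -1.51 ± 0.85 in fertilized Aph- embryos (adjusted p = 0.184), -1.91 ± 0.85 in SCNT Aph- embryos (adjusted p = 0.0981) and -2.24 ± 0.85 in fertilized Aph+ embryos (adjusted p = 0.0609). Each passed in some alternatives, with 75th percentile scaling at -2.34 (adjusted p = 0.0168), -2.95 (adjusted p = 0.00401) and -4.01 (adjusted p = 0.000393).

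Lin28a, the RNA-binding protein that blocks let-7 maturation, was highest in the oocyte and lower in every embryo group tested against it. The oocyte had a log2 level of 9.62. Fertilized Aph- embryos had 6.12, 6.52 and 6.11, SCNT Aph- embryos 6.74, 6.83 and 6.50, and fertilized Aph+ embryos 6.05, 4.37 and 6.79, of which 2 of 3 were detected. The SCNT Aph+ array at 4.26 and cumulus cells at 4.35 and 4.18 were undetected. Relative to the oocyte, Lin28a was 10.3-fold lower in fertilized Aph- embryos (log2 difference -3.37 ± 0.70, adjusted p = 0.00323), 7.60-fold lower in SCNT Aph- embryos (-2.93 ± 0.70, adjusted p = 0.00684) and 14.7-fold lower in fertilized Aph+ embryos (-3.88 ± 0.70, adjusted p = 0.00147). The last value includes the undetected replicate 2, without which the fold was 9.15 (log2 difference -3.19, adjusted p = 0.00011), and it was not called with only the groups compared (adjusted p = 0.133). A further Lin28a probe was detected in the oocyte alone. With Aph the gene fell after SCNT by at least 1.65-fold (log2 difference -2.43 ± 0.70, adjusted p = 0.0283), a call that was lost when any 1 of the 3 SCNT Aph- arrays was left out. The call was also lost with 75th percentile scaling, without a filter on detection and with the mean of all kept probes. After fertilization the log2 difference was -0.51 ± 0.50 (adjusted p = 0.44) with overlap, and it rested on replicate 2, without which it was 0.17 (adjusted p = 0.636).

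Of the 4 genes that fell on the SCNT Aph+ array, the promoter table of RefSeq (build GRCm38.p6) held Esrrb and Lin28a, and it held 7 of the 10 factors in 9 windows. One window each of Esrrb, which has 2 in the table, and of Lin28a is shown because these genes fell after SCNT and did not pass the test after fertilization. Each is 300 bases long on the strand of its gene, chr12:86360867-86361166 on the plus strand for Esrrb and chr4:134018767-134019066 on the minus strand for Lin28a. Capitals mark matches on either strand to CACCC (the core of the KLF motif), ACAATG (a SOX motif), AAGGTCA (the site of ESRRB and NR5A2) and AGGTGT (a T-box site).

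Esrrb: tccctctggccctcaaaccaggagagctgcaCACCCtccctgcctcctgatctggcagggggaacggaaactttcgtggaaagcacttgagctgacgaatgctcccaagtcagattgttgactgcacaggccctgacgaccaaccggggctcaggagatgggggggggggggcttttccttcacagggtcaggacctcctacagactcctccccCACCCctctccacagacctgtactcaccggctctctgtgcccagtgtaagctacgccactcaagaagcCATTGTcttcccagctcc

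Lin28a: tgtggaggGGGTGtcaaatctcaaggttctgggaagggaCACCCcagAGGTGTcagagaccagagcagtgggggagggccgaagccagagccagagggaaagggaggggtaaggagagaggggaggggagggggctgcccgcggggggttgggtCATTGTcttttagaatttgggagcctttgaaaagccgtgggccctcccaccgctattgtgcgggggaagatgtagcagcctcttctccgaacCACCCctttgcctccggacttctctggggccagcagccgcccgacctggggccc

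The Esrrb window shown, the first of 2, held CACCC 2 times and ACAATG 1 time. The second Esrrb window held CACCC 1 time and no other of these motifs, and the Lin28a window held CACCC 3 times, ACAATG 1 time and AGGTGT 1 time. Among 32851 windows of the same length, 57.5% held CACCC, 12.6% ACAATG, 4.72% AAGGTCA and 13.7% AGGTGT, and 6, 2, 0 and 1 of the 9 windows of the factors did. No binding was measured in this study, so these matches describe the sequence only.

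Nr5a2, the nuclear receptor that can bind the same site as Esrrb, was detected on all 13 arrays. The levels on the log2 scale were 8.41, 7.995 and 8.79 in fertilized Aph- embryos, 8.24, 8.14 and 7.90 in fertilized Aph+ embryos, and 9.17, 8.24 and 8.84 in SCNT Aph- embryos. They were 7.81 on the SCNT Aph+ array, 6.89 in the oocyte and 8.57 and 8.28 in cumulus cells. Every embryo pool thus lay above the oocyte. The log2 difference from it was 1.51 ± 0.40 in fertilized Aph- embryos (adjusted p = 0.0122), 1.86 ± 0.40 in SCNT Aph- embryos (adjusted p = 0.00384) and 1.20 ± 0.40 in fertilized Aph+ embryos (adjusted p = 0.0367), or 2.84-fold, 3.63-fold and 2.31-fold. The last of these was lost in 10 of 20 alternatives, among them the authors' log2 values (1.30, adjusted p = 0.0698) and the fits without fertilized Aph+ replicate 1 or replicate 2. With Aph the log2 difference was -0.30 ± 0.29 after fertilization (adjusted p = 0.423) and -0.94 ± 0.40 after SCNT (adjusted p = 0.116), and a further probe, also detected on all arrays, gave 0.13 ± 0.23 and -0.45 ± 0.33. With 75th percentile scaling the representative probe passed in both, at -1.31 ± 0.37 (adjusted p = 0.00447) and -2.14 ± 0.52 (adjusted p = 0.00456).

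Sall4, a zinc-finger protein of oocytes, inner cell mass and germ cells, was detected in the oocyte and on every embryo array. The log2 levels of Sall4 were 11.70, 12.09 and 11.72 in fertilized Aph- embryos, 11.72, 10.48 and 11.40 in fertilized Aph+ embryos, and 11.66, 11.69 and 11.61 in SCNT Aph- embryos. The SCNT Aph+ array had 10.84 and the oocyte 12.30, while both cumulus arrays, at 5.56 and 4.35, were undetected. On the SCNT Aph+ array it was at least 50.9-fold higher than in cumulus cells (log2 difference 5.89 ± 0.56, adjusted p = 0.000234, n = 1 against 2). In SCNT Aph- embryos it was at least 89.4-fold higher than in cumulus cells (6.70 ± 0.41, adjusted p = 3.97e-06, n = 3 against 2). Both cumulus arrays bear on these sizes, since without the first or the second the fitted log2 differences were 6.49 or 5.28 for SCNT Aph+ and 7.30 or 6.10 for SCNT Aph-, all still called. The log2 difference with Aph was -0.64 ± 0.37 after fertilization (adjusted p = 0.192, with overlap) and -0.81 ± 0.52 after SCNT (adjusted p = 0.3), and both passed with 75th percentile scaling (-1.38, adjusted p = 0.0165, and -2.73, adjusted p = 0.00543). A further, much dimmer Sall4 probe, annotated to another transcript, was lower than in the oocyte, at log2 differences of -1.95 ± 0.41 in fertilized Aph- embryos (adjusted p = 0.00346) and -1.81 ± 0.41 in SCNT Aph- embryos (adjusted p = 0.00512), a difference that the main probe did not show (-0.47 ± 0.52 and -0.65 ± 0.52).

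Sox2, the partner of Oct4 on DNA, was at the edge of detection. The detection p-values were 0.00627, 0.00125 and 0.0113 on the fertilized Aph- arrays and 0.0213 on the oocyte, so the probe was detected on 2 arrays in all. Sox2 read log2 levels of 4.87, 4.85 and 4.76 in fertilized Aph- embryos and 5.31 in the oocyte, and 4.19 to 4.55 on the remaining 9 arrays, where it cannot be told from background. The fit called Sox2 lower than the oocyte in fertilized Aph+ and in SCNT Aph- embryos (adjusted p = 0.0132 and 0.00569), with the probe undetected in both groups compared, so no fold is given. The log2 difference of fertilized Aph+ from Aph- embryos was -0.38 ± 0.16 (adjusted p = 0.0885), and it was 0.89 ± 0.41 with 75th percentile scaling. The Aph+ detection limits (5.67, 5.77 and 6.15) lay above the Aph- levels, so neither value gives an order of these groups. The other Sox2 probe was detected on no array.

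The oocyte is the common starting point of all embryos, and its single array serves in each of the comparisons with it. In fertilized Aph- embryos 4 factors were higher than in the oocyte (Tbx3, Klf4, Klf5 and Nr5a2) and 1 was lower (Lin28a), against 23.7% and 21.2% of all genes. In SCNT Aph- embryos 3 were higher (Tbx3, Klf5 and Nr5a2) and 2 lower (Sox2 and Lin28a), against 23.7% and 21.5%. In fertilized Aph+ embryos 2 were higher (Klf5 and Nr5a2) and 3 lower (Sox2, Tbx3 and Lin28a), against 18.6% and 22.4%. The median log2 differences were 0.73, -0.42 and -0.86, against 0.06, 0.07 and 0.04 over all genes. Klf2 and Klf4 also lay above the oocyte on each of the 3 fertilized Aph+ arrays, without a call. The counts include Sox2, which was undetected on both sides. The call of Sox2 was lost in 4 of 19 alternatives for fertilized Aph+ embryos and in 1 of 19 for SCNT Aph- embryos.

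Cumulus cells are the starting point of SCNT embryos on the side of the nucleus. They showed Klf2, Klf4 and Nr5a2, and none of the other 6 measured factors was detected on either cumulus array. In SCNT Aph- embryos 6 factors were higher than in cumulus cells (Esrrb, Tbx3, Klf4, Klf5, Sall4 and Lin28a) and 1, Klf2, was lower, against 17.5% and 16.4% of all genes, and the median log2 difference was 2.42, against 0.03 over all genes. Esrrb was at least 12.1-fold higher (log2 difference 4.57 ± 0.67, adjusted p = 0.000671), Klf5 at least 28.1-fold (5.61 ± 0.29, adjusted p = 1.79e-06), Tbx3 at least 11.5-fold (4.43 ± 0.21, adjusted p = 9.94e-07) and Lin28a at least 2.87-fold (2.42 ± 0.56, adjusted p = 0.00806). With 1 array left out, 5 to 7 factors were called. The call of Klf4 was lost without cumulus replicate 1, and that of Lin28a without cumulus replicate 2. On the SCNT Aph+ array 1 factor, Sall4, was called higher than in cumulus cells at an adjusted p under 0.05 and 0 were called lower, against 4.39% and 2.6% of all genes. At an unadjusted p under 0.05, again with no share of all genes beside it, there were 2 higher and 0 lower. Klf4 lay above both cumulus arrays (log2 difference 1.07 ± 0.45, adjusted p = 0.219). The factors detected on that array were Klf2, Klf4, Nr5a2 and Sall4. The 3 former were also detected in cumulus cells and in the oocyte, and Sall4 in the oocyte and not in cumulus cells. The 10 cumulus markers detected on the same array include Timp1, at a log2 level of 12.15 against 6.07 to 6.65 in SCNT Aph- embryos, and the part of cumulus RNA in the levels of Klf2, Klf4 and Nr5a2 was not tested.

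With replication allowed, 0 of the 9 factors were called between SCNT and fertilized embryos at an adjusted p under 0.05. Over all genes, 0.163% were higher and 0.398% lower after SCNT, so few that 0 of 9 says little about the factors. At an unadjusted p under 0.05, 3 factors (Sox2, Klf2 and Klf4) were lower and 0 higher, a count with no share of all genes to judge it by. The count of called factors was 0 under each of the 20 alternatives. With only the groups compared, for example, 94 genes were called higher and 140 lower among 9787. Klf4 had a log2 difference of -0.97 ± 0.30 (adjusted p = 0.251) and Klf2 of -1.16 ± 0.49 (adjusted p = 0.48). In both, and in Sall4, every SCNT array lay below every fertilized array. Sox2 was undetected on all 3 SCNT Aph- arrays, whose detection limits lay above its level in fertilized embryos, so its levels have no order here. Tbx3 differed by -0.05 ± 0.19 and Sall4 by -0.19 ± 0.37.

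Whether Aph acted differently after SCNT than after fertilization was asked with an interaction term. The fall was larger after SCNT for Esrrb, with a term of -3.48 ± 1.04 on the log2 scale (adjusted p = 0.0348), and for Klf5, with -2.68 ± 0.45 (adjusted p = 0.00248), so 2 of 9 factors were called lower and 0 higher, against 12.4% and 13.8% of all genes. Both terms contain an undetected value on the 1 SCNT Aph+ array. Neither passed with 75th percentile scaling (log2 differences -1.45, adjusted p = 0.436 for Esrrb, and -0.63, adjusted p = 0.67 for Klf5) or without background correction, and that of Esrrb was also lost in 8 of the 11 fits without 1 array. The Esrrb term was -2.79 without fertilized Aph+ replicate 1 and -4.24 without replicate 3. Tbx3 fell by like amounts in both (interaction -0.16 ± 0.32, adjusted p = 0.762), but it was undetected with Aph in both, which leaves no room to see a difference.

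**Figure D4:**
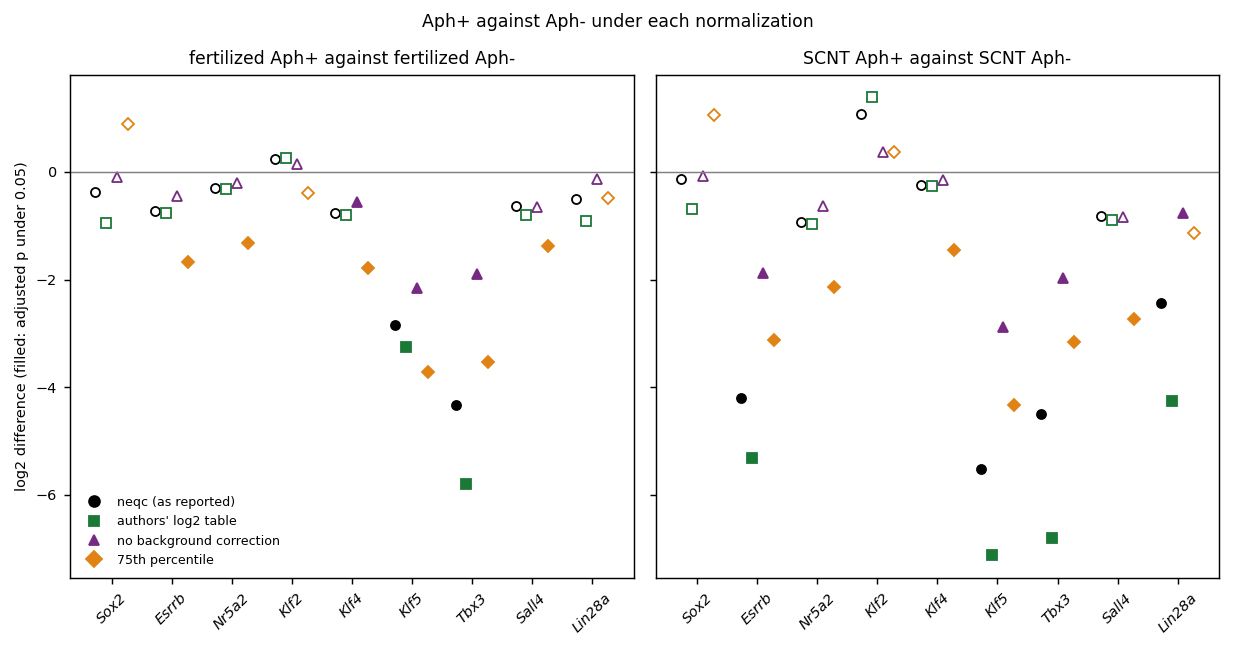
Log2 difference of Aph+ from Aph- embryos (y axis) for the 9 factors (x axis) under 4 ways to normalize the arrays, after fertilization (left) and after SCNT (right), with filled symbols where the adjusted p was under 0.05. Tbx3 and Klf5 were called under all 4 in both panels, whereas Klf4, Nr5a2 and Sall4 passed in both panels with 75th percentile scaling.

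The scaling of the arrays decided the calls of the moderate falls. With 75th percentile scaling, 6 of 9 factors fell and 0 rose in fertilized embryos with Aph, against 30% and 40% of all genes, and 6 fell and 0 rose after SCNT, against 22.9% and 7.84%. Lin28a was not among the 6 after SCNT. The median of all genes moved from -0.03 to 0.31 after fertilization and from -0.10 to 0.16 after SCNT. Relative to that shift Klf4, Nr5a2, Sall4 and Esrrb fell in fertilized Aph+ embryos, whereas Klf2 and Lin28a did not pass. Sox2, undetected with Aph, had a positive difference without a call. The intensities of Klf4, Nr5a2 and Sall4 before normalization were 876 to 1249, 460 to 917 and 5725 to 6224 in fertilized Aph- embryos and 125 to 163, 118 to 149 and 503 to 1018 in fertilized Aph+ embryos.

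Oct4 (Pou5f1) and Nanog serve as reference. In fertilized Aph+ against Aph- embryos the log2 difference was -2.09 ± 0.24 for Pou5f1 (adjusted p = 0.000114) and -4.05 ± 0.87 for Nanog (adjusted p = 0.00434), and after SCNT -1.91 ± 0.34 (adjusted p = 0.00278) and -6.02 ± 1.24 (adjusted p = 0.0055). The Pou5f1 probe quoted was detected on no Aph+ array. Against the detection limits it was at least 1.66-fold lower after fertilization and at least 1.12-fold lower after SCNT, where Nanog was at least 20.3-fold lower. Another Pou5f1 probe was detected in fertilized Aph+ embryos, so these bounds hold for the quoted probe only. Nanog was detected on 1 of the 3 fertilized Aph+ arrays, replicate 2, at a log2 level of 8.26.

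The genes that feed into the factors or answer to them are given as counts of calls, to be read against the 19.1% of all genes that were higher and the 25.1% that were lower in fertilized Aph+ against Aph- embryos, and the 13.7% and 14.7% after SCNT. Of 8 measured genes of LIF and STAT3 signalling, 2 were higher and 2 lower, among them Jak2, the kinase, at 5.23 ± 0.24 on the log2 difference scale (adjusted p = 8.75e-07), Socs3, the feedback inhibitor, at 1.46 ± 0.37, and Jak1 at -0.97 ± 0.24. Jak2 rose after SCNT too, by 4.66 ± 0.35 (adjusted p = 2.74e-05). Of 13 genes of WNT and BMP input, 1 was higher, Id1 (3.91 ± 0.28), and 6 were lower, with Id2 at -2.80 ± 0.37, the receptor Bmpr1a at -2.16 ± 0.47 and the signal transducer Smad1 at -2.09 ± 0.48. On the SCNT Aph+ array Bmpr1a (2.19 ± 0.66) and Smad1 (2.87 ± 0.67) were higher instead, and 5 of the 13 were higher and 1 lower there, beside cumulus markers at the level of cumulus cells.

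Of 13 partner transcription factors, 7 were higher and 2 lower in fertilized Aph+ than in Aph- embryos, against 19.1% and 25.1% of all genes. The median log2 difference was 0.91, against -0.03 over all genes. Against the oocyte the median was -0.01 in fertilized Aph+ embryos, with 2 higher and 3 lower (18.6% and 22.4% of all genes). In fertilized Aph- embryos it was -0.89, with 0 higher and 4 lower (23.7% and 21.2%). Between fertilized Aph+ and Aph- embryos, the homeobox gene Gbx2 differed by 3.47 ± 0.40, Zfp281 by 1.83 ± 0.42 and Sox15 by 1.67 ± 0.48. Max, the partner of Myc, differed by -2.96 ± 0.53. Of 22 genes reported as targets of the network in pluripotent cells, 4 were higher and 10 lower, against 19.1% and 25.1% of all genes, with Tcl1 at 3.09 ± 0.42, Dppa3 at 2.65 ± 0.42, Gdf3 at -2.45 ± 0.33 and L1td1 at -2.14 ± 0.35. Tcl1 and Dppa3 are also maternal transcripts of the oocyte. After SCNT 1 of these 22 was higher, Tcl1 again (3.35 ± 0.59), and 10 were lower, among them Dppa3 (-2.64 ± 0.59). The median log2 difference of the targets was -0.55 after fertilization and -1.38 after SCNT, against -0.03 and -0.10 over all genes.

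Of 24 measured relatives of the factors, 6 rose and 6 fell in fertilized embryos with Aph, shares near those of all genes. Klf17, an oocyte-rich Krüppel-like factor, was 45.1-fold higher (log2 difference 5.49 ± 0.46, adjusted p = 1.78e-05), Klf6 at least 7.41-fold lower (-4.03 ± 0.40), Klf9 at least 4.38-fold lower (-3.70 ± 0.28) and Sox17, a primitive endoderm gene, at least 2.98-fold lower (-3.05 ± 0.26). Of 10 genes of the let-7 and LIN28 pathway, 1 was lower (the exportin Xpo5, -1.55 ± 0.51) and 1 higher (Imp3, 0.90 ± 0.29). Imp3 encodes a protein of the U3 small nucleolar ribonucleoprotein and is not a gene of this pathway. Igf2bp3, for which IMP3 is an older name, is in the list too, and its log2 difference was 0.41 ± 0.46 (adjusted p = 0.507). Of 8 NuRD subunits, which Sall4 can recruit, 1 was higher (Gatad2b, 1.20 ± 0.42) and 1 lower (Mta3, -2.26 ± 0.20, and -2.70 ± 0.28 after SCNT).

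Across the 13 arrays the factors did not share 1 course. Among 36 pairs, Pearson's r of the log2 levels was highest for Esrrb and Sall4 (0.808) and lowest for Tbx3 and Klf2 (-0.54), over points that share their group, their brightness and the same hybridized pools. The genes whose course was most like that of Tbx3 were Prkcz (r = 0.991) and Mta3 (0.989), those most like Klf5 were Trim43a (0.984) and Cct6b (0.983), and those most like Esrrb were Rfc5 (0.963) and Dusp14 (0.959). For Sall4 they were Supv3l1 (0.969) and Ooep (0.954), for Lin28a Arhgef39 (0.937) and Trim59 (0.933), for Nr5a2 Srpr (0.876) and Rab40c (0.864), for Klf4 Coq7 (0.873) and Upp1 (0.867), and for Klf2 Tra2a (0.855) and Rnf44 (0.839). By rank the likeness was weaker for some, with Spearman's rho from 0.44 for Sall4 and Ooep to 0.923 for Klf5 and Cct6b. Sall4 was detected on 11 of the 13 arrays, all but those of cumulus cells. These values describe 13 arrays in 6 groups and carry no test. Mta3 and Upp1 also stand in the NuRD and target lists above.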

How the data were processed

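Arrays were Illumina mouse BeadChips. The authors deposited an intensity per probe, summarised with BeadStudio 3.2, on a linear scale and not normalized, and with each a detection p-value. The authors' other table holds log2 values with a median of 1.35 on every array, which rank probes exactly as the intensities do. The submitters' notes name lumi and RMA without a role. The chip in the methods is not the one that the annotation matches. The column name of the SCNT Aph+ intensities carries a blastocyst tag that the title of the sample lacks. It was taken as the only SCNT sample with Aph, whose label gives blastocyst as sample type.

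Normalization used neqc (limma 3.58.1, R 4.3.3, offset 16). A probe needed a detection p under 0.01 on 1 array or more, and each symbol took its probe of highest mean. One limma fit over 6 groups left 7 residual degrees of freedom, and p-values were adjusted by the Benjamini-Hochberg method within each comparison over 9787 genes. If no array of a group detected any probe of a gene, its fold is a bound against the detection limit of those arrays. Where the value of the probe used was higher, the bound is against that value. For Pou5f1 detection of the quoted probe alone decided. Precision depends on how many arrays there were. The fit was tested on simulated data. Both the 10 genes and the gene lists were chosen with earlier results of these data known. Up to 4 genes were named per list, by largest change among those called in fertilized embryos, and 2 genes of like course for each factor detected on 3 arrays or more.

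As alternatives, the values were the authors' log2 table, intensities with no background correction, or intensities scaled to the 75th percentile. The filter was dropped or raised to 3 arrays, all kept probes were averaged, and the fit was limited to the groups compared, given the sample type as a block, or moderated with a trend and robustly. Each array of a replicated group was also left out.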

Additional observations from a re-analysis of the deposited data

Results flagged for a closer look

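The effect of Aph differed between SCNT and fertilized embryos for Esrrb and Klf5, by the interaction term of the limma model. For Esrrb the log2 difference of the 2 effects was -3.475 (adjusted p = 0.0348), with Aph+ minus Aph- at -4.21 after SCNT and -0.73 after fertilization. For Klf5 it was -2.677 (adjusted p = 0.00248), with -5.53 after SCNT and -2.85 after fertilization. Both rest on the 1 SCNT Aph+ array, where neither gene was detected and where cumulus markers stood at a mean log2 level of 7.84, and cumulus cells lacked both genes at the limit of detection.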

How the results depend on the processing

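Of 31 called differences of single factors, 17 kept direction and call under all of the 20 alternatives that gave a value, 14 lost the call in at least 1, and 0 changed sign. The falls of Tbx3 and Klf5 with Aph were kept throughout. Called factors numbered 6 in fertilized Aph+ against Aph- embryos with 75th percentile scaling, and 3 in fertilized Aph- embryos against the oocyte with the authors' log2 values and with the sample type as a block. Calls over all genes in fertilized Aph- embryos against the oocyte were 2324 higher and 2072 lower as reported. They were 2417 and 1910 with the authors' values, and 2123 and 1876 with the block. With only the groups compared, called factors numbered 2 in fertilized Aph+ embryos against the oocyte and 0 on the SCNT Aph+ array against cumulus cells. In the former, calls over all 9787 genes also fell, from 1817 higher and 2190 lower to 831 and 902. In the latter 0 of all genes were called, so that count says nothing about the factors. For the interaction, called factors numbered 0 without background correction and with 75th percentile scaling. Interaction calls over all genes were 1348 higher and 1215 lower as reported. They were 1340 and 1092 without background correction, and 261 and 673 with 75th percentile scaling. Called factors numbered 1 without a filter, 1 with only the groups compared and 1 with the sample type as a block, and 1 to 2 with an array left out. Without 1 array, the Esrrb term lost its call in 8 of 11 fits.

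Of 43 differences that were not called, 16 were called in some alternative and 9 changed sign in some, none with a call. With 75th percentile scaling the log2 difference of fertilized Aph+ from Aph- embryos was 0.89 for Sox2 and -0.40 for Klf2, that of fertilized Aph+ embryos from the oocyte was -0.27 for Klf4, that of SCNT Aph+ from cumulus cells -0.13 for Klf4, and the interaction of Tbx3 was 0.38. The mean of all kept probes gave 0.12 for Lin28a in fertilized Aph+ against Aph- embryos. With arrays left out in turn, that comparison ranged from -1.42 to 0.035 for Esrrb, from -0.25 to 0.63 for Klf2 and from -1.04 to 0.17 for Lin28a. SCNT Aph- against fertilized Aph- embryos ranged from -0.17 to 0.067 for Tbx3, and the interaction from -0.53 to 0.085 for Sall4. The cause was not tested.

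Scaling to the 75th percentile moved the share of higher genes among all calls from 43.2% to 57.2% in fertilized Aph+ against Aph- embryos, from 48.1% to 25.5% after SCNT, from 45.3% to 32.9% in fertilized Aph+ embryos against the oocyte, from 62.9% to 17.5% on the SCNT Aph+ array against cumulus cells and from 52.6% to 27.9% in the interaction. The dim Aph+ arrays had higher detection limits, so falls of genes undetected there are bounds. The labels give every embryo array the replicate number 1, and the main fit was not paired. Whether arrays of the same sample type held siblings is not given in the labels, and the sample type as a block is among the alternatives above.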
